A study of Homo sapiens with 12 samples.

Results

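The 10 genes described here encode kinases of the JNK cascade and a scaffold that holds them together. They are MAP4K4, MAP3K1, MAP3K4, MAP3K5, MAP3K7, MAP2K4, MAP2K7, MAPK8, MAPK9 and SPAG9, taken by name as the arm of stress signalling that SRMS, a non-receptor tyrosine kinase, has been proposed to restrain. The list has no threshold on a measured value, and all 10 genes were among the 14029 tested. Bulk RNA with poly(A) tails was sequenced from human ovarian cancer cells of the line ES-2. Some of the cells expressed a short hairpin RNA (shRNA) against SRMS, with the genotype given as SRMS knockdown, and the others a control vector, with the genotype given as WT. Of each, 3 libraries had received 15 µM cisplatin, a DNA-crosslinking platinum drug, for 8 hours. Every library used here is from cisplatin-treated cells, so the comparison is between the constructs under the drug and holds no response to the drug itself. The series also lists 6 libraries of PBS-treated cells, which are not analysed here. The hairpin sequence, and whether the lines are clones or pools, are not stated. Nothing in the labels tells whether replicates are separate cultures, and the p-values therefore reflect the spread among these libraries, possibly a technical one.

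JNK signalling runs as a relay of kinases. Stress or cytokine receptors act through MAP4Ks and adaptors on MAP3Ks, these phosphorylate the dual-specificity kinases MAP2K4 (MKK4) and MAP2K7 (MKK7), and those in turn phosphorylate the JNKs on a threonine and a tyrosine. Active JNK phosphorylates c-Jun and other proteins, and platinum drugs are among the agents known to activate it. This relay works by phosphorylation, which an mRNA measurement does not read.

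The stretches shown are those that the kinase layer above phosphorylates, in the MAP2K and in the JNK members. Each is 30 bases of coding sequence from GENCODE release 29 transcripts on GRCh38, 5′ to 3′ along the mRNA. In the JNK genes the capitals mark the codons for threonine, proline and tyrosine, whose first and last residues are phosphorylated by the MAP2Ks. MAPK10, the JNK gene best known from neurons, is added for comparison.
MAPK8: tttatgatgACGCCTTATgtagtgactcgc
MAPK9: ttcatgatgACCCCTTACgtggtgacacgg
MAPK10: ttcatgatgACTCCATATgtggtgacacgt
The capitals lie at chr10:48420251-48420259 on the plus strand for MAPK8, at chr5:180249034-180249042 on the minus strand for MAPK9 and at chr4:86101113-86101121 on the minus strand for MAPK10. They are codons 183 to 185 of 427 in MAPK8 and 183 to 185 of 424 in MAPK9. In the MAP2K genes the capitals mark the stretch of the activation loop from a serine to a threonine, both targets of MAP3Ks.
MAP2K4: gtggacTCTATTGCCAAGACAagagatgct
MAP2K7: gtggacTCCAAAGCCAAGACGcggagcgcc
These capitals lie at chr17:12113316-12113330 for MAP2K4 and at chr19:7911115-7911129 for MAP2K7, both on the plus strand. The paralogs compared here shared only short runs of sequence, and how reads were assigned between them was not checked. No stretch of 50 bases was shared between the transcripts used for MAPK8 and MAPK9, where the longest common run was 29 bases, or for MAP2K4 and MAP2K7, where it was 14 bases. The longest run that MAP4K4 shared with a related kinase was 35 bases, with TNIK.

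Values are given as the deposited signal, which is a CPM-like value in which the authors divided reads by an effective library size. The reads recovered from it came to between 28009232 and 38072051 in the libraries labelled SRMS shRNA and to between 29072793 and 56855428 in the vector libraries. SRMS (ENSG00000125508, chr20:63540810-63547504, minus strand) had a signal of 0.328, 1.07 and 0.863 in the libraries labelled SRMS shRNA, against 0.0669, 0.306 and 0.819 in the vector libraries. The targeted gene was therefore not lower under its hairpin label, at a log2 fold change of 0.52 (SE 0.303, 95% interval -0.15 to 1.19, limma adjusted p = 0.168), on 138 reads in all. Blocking on the replicate number gave an adjusted p of 0.00782 by limma for this higher level. The log2 fold change was the same, and 3 of 3 same-numbered pairs were higher. With the block and the trend on length and GC content of transcripts taken out, limma gave an adjusted p of 0.166. On recovered reads it was 0.259 by edgeR and 0.437 by DESeq2. All directions below are those of the libraries labelled SRMS shRNA. Of the epithelial and ovarian markers KRT7, KRT8, KRT18, PAX8 and WT1 were tested, and EPCAM, CDH1, KRT19 and MUC16 are not analysed here. Their summed signal was 1621 to 1691 in the libraries labelled SRMS shRNA and 1640 to 1699 in the vector libraries, with PAX8 near 0. Within that sum KRT8 and KRT18 rose and KRT7 and WT1 fell by limma. Summed signals of 3 mesenchymal markers were 7010 to 7772 against 5822 to 6360, where VIM and FN1 rose and CDH2 fell, and those of 2 of 4 leukocyte markers, CD68 and CD14, were 60.1 to 64.5 against 49.2 to 52.1. Those of 2 of 3 endothelial markers were 5.63 to 7.41 against 14.1 to 16.1, and those of 3 of 4 fibroblast markers were 814 to 821 against 1237 to 1240. The endothelial sum was mostly CDH5, which fell, with means of 6.12 against 15.2. PECAM1 was at 0.393 against 0.211 (limma adjusted p = 0.0745). The fibroblast sum was nearly all COL1A1, which fell, at 816 against 1238. COL1A2, at 0.0671 against 0.147, and PDGFRB, at 0.827 against 0.671, did not pass the test. PTPRC, CD3E, VWF and DCN are not analysed here. All these libraries are of the cultured line ES-2. The part of these markers in the results was not tested, and in bulk RNA fewer cells with a marker and less of its RNA per cell cannot be told apart.

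On the deposited scale the cascade genes were mostly lower in the libraries labelled SRMS shRNA, and with median scaling 5 were still lower and 2 were higher. Of the 10 members, 7 fell and 0 rose by limma at an adjusted p under 0.05, where 30.2% of all genes tested fell and 26.6% rose. MAP3K1, MAP3K4, MAP3K7, MAP2K4, MAP2K7, MAPK8 and SPAG9 fell, by between 10.4% and 39.8% of the vector mean, and MAP4K4, MAP3K5 and MAPK9 did not pass the test. The median log2 fold change of the members was -0.31, against 0.00 over all genes. Their transcripts are long, with a median of 4863 nt against 3055 nt for all genes. Among the 4851 genes within the members' length range of 3361 to 7011 nt the median log2 fold change was -0.13, 43.8% fell and 13.2% rose. In 7 members every library labelled SRMS shRNA lay under every vector library, as in 32.9% of all genes. In 0 members did every one lie above, as in 29.7% of all genes. These 7 were the members that passed the test.

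**Figure D1:**
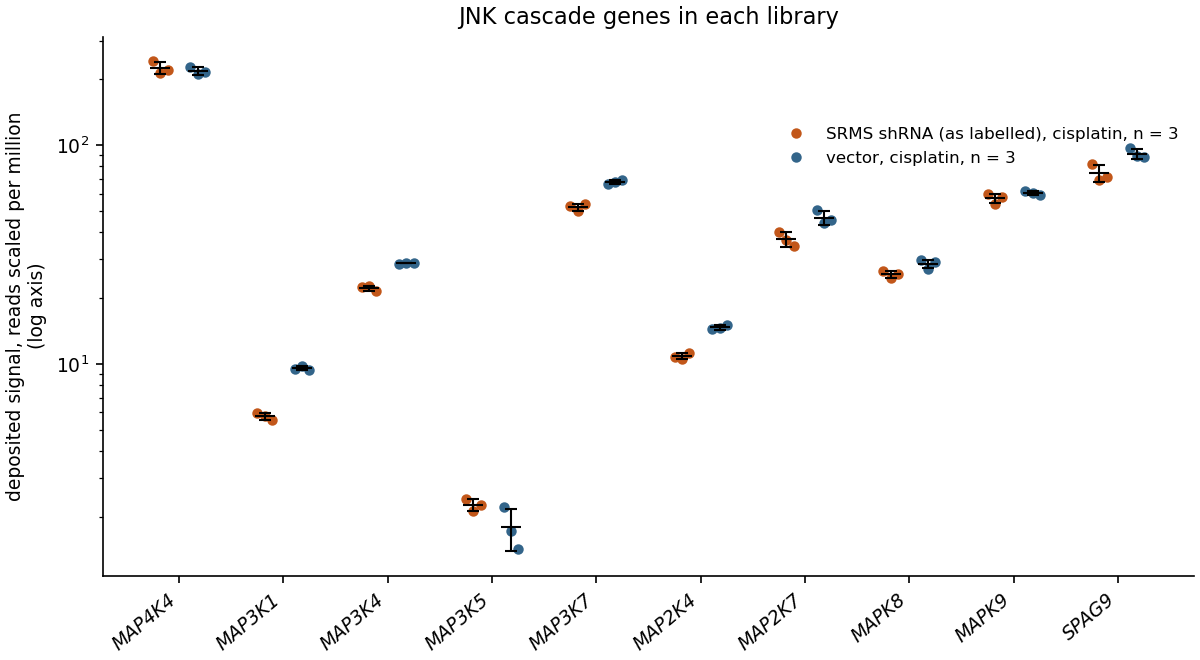
Deposited signal (log axis) of the 10 members in each library, with libraries labelled SRMS shRNA on the left and vector libraries on the right for each gene; bars give the mean ± SD of 3 libraries. In 7 members the groups do not overlap, as for MAP3K1 with 5.53 to 5.98 against 9.38 to 9.82.

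At the top of the cascade, MAP4K4 (HGK), a kinase that acts upstream of MAP3Ks, was the most abundant member. It lies at chr2:101696850-101894689 on the plus strand (ENSG00000071054). Its signal was 241, 214 and 219 in the libraries labelled SRMS shRNA, against 228, 212 and 215 in the vector libraries. The groups overlapped, and the highest library of each was replicate 1. Its log2 fold change of 0.04 did not pass the test (SE 0.0488, 95% interval -0.07 to 0.15, limma adjusted p = 0.487), and an exact two-sided permutation test over libraries gave p = 0.6. With 3 libraries a group that test cannot go below 0.1.

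Of the 4 MAP3Ks, 3 fell. MAP3K1 (MEKK1), a kinase that also carries a ubiquitin ligase domain, lies at chr5:56815574-56896152 on the plus strand (ENSG00000095015). Its signal was 5.98, 5.77 and 5.53 in the libraries labelled SRMS shRNA, against 9.50, 9.82 and 9.38 in the vector libraries. The groups stood far apart, with means of 5.76 ± 0.227 against 9.57 ± 0.231 (SD, n = 3 each), 39.8% lower. Its log2 fold change of -0.69 was the largest drop among the members (SE 0.0774, 95% interval -0.86 to -0.51, limma adjusted p = 4.23e-05). It rested on 164 to 210 reads per library labelled SRMS shRNA and 284 to 538 per vector library.

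MAP3K4 (MEKK4), the MAP3K that GADD45 proteins bind and activate, lies at chr6:160991727-161117385 on the plus strand (ENSG00000085511). Its signal was 22.4, 22.6 and 21.4 in the libraries labelled SRMS shRNA, against 28.7, 28.9 and 29.0 in the vector libraries. The vector libraries lay within a narrow band above all the others. The means were 22.1 ± 0.614 and 28.9 ± 0.132 (SD, n = 3 each), 23.4% lower, and the log2 fold change was -0.38 (SE 0.05, limma adjusted p = 0.000119). MAP3K7 (TAK1), which relays signals from cytokine and TGF-beta receptors to JNK, p38 and NF-κB, lies at chr6:90513573-90587045 on the minus strand (ENSG00000135341). Its signal was 52.4, 49.7 and 53.6 in the libraries labelled SRMS shRNA, against 66.6, 68.0 and 69.4 in the vector libraries. The gap between the groups was wider than the range within either. The means were 51.9 ± 1.99 and 68.0 ± 1.41 (SD, n = 3 each), 23.7% lower, with a log2 fold change of -0.39 (SE 0.0433, limma adjusted p = 3.95e-05).

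MAP3K5 (ASK1), an oxidative-stress kinase that thioredoxin holds inactive, did not pass the test. It lies at chr6:136557047-136792518 on the minus strand (ENSG00000197442) and was the member with the fewest reads, 66 to 82 per library. Its signal was 2.41, 2.12 and 2.27 in the libraries labelled SRMS shRNA, against 2.21, 1.72 and 1.43 in the vector libraries. The groups overlapped through vector replicate 1, the highest vector library. Its log2 fold change stood at 0.29 (SE 0.135, 95% interval -0.01 to 0.59, limma adjusted p = 0.0944; exact two-sided permutation p = 0.2). Without vector replicate 1 the adjusted p from limma was 0.0221. Leaving out any other single library gave 0.114 to 0.332 by limma. With all libraries, edgeR gave 0.0841 and DESeq2 0.148.

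Both MAP2Ks fell. MAP2K4 (MKK4), which phosphorylates JNK and also p38, lies at chr17:12020824-12143830 on the plus strand (ENSG00000065559). Its signal was 10.7, 10.5 and 11.2 in the libraries labelled SRMS shRNA, against 14.5, 14.5 and 15.1 in the vector libraries. The groups did not overlap. The means were 10.8 ± 0.339 and 14.7 ± 0.372 (SD, n = 3 each), 26.4% lower, with a log2 fold change of -0.43 (SE 0.065, limma adjusted p = 0.000304). MAP2K7 (MKK7), which is specific to JNK, lies at chr19:7903843-7914478 on the plus strand (ENSG00000076984). Its signal was 40.1, 36.7 and 34.4 in the libraries labelled SRMS shRNA, against 50.3, 44.1 and 45.2 in the vector libraries. The spread within groups was wider than for MAP2K4, though the groups did not overlap. The means were 37.1 ± 2.90 and 46.5 ± 3.29 (SD, n = 3 each), 20.3% lower, with a log2 fold change of -0.32 (SE 0.0673, limma adjusted p = 0.00209).

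The JNK genes had smaller fold changes than the MAP2Ks that act on them, a difference that was not tested. MAPK8 (JNK1) lies at chr10:48306639-48439360 on the plus strand (ENSG00000107643). Its signal was 26.6, 24.8 and 25.7 in the libraries labelled SRMS shRNA, against 29.7, 27.2 and 29.1 in the vector libraries. The groups came close without overlapping. The means were 25.7 ± 0.881 and 28.7 ± 1.29 (SD, n = 3 each), 10.4% lower, with a log2 fold change of -0.16 (SE 0.0551, 95% interval -0.28 to -0.03, limma adjusted p = 0.0336). That call was made in 10 of 20 other settings, the value was 0.0048 with median scaling, and it was lost without any of SRMS shRNA replicates 2 and 3 or vector replicates 1 and 3. MAPK9 (JNK2) lies at chr5:180233143-180292099 on the minus strand (ENSG00000050748). Its signal was 59.4, 53.9 and 58.0 in the libraries labelled SRMS shRNA, against 61.5, 60.4 and 59.2 in the vector libraries. The groups overlapped, with a log2 fold change of -0.08 (SE 0.0462, 95% interval -0.18 to 0.02, limma adjusted p = 0.163; exact two-sided permutation p = 0.2). MAPK10 was counted in 41 reads over all 6 libraries, and its signal was 0.0989 ± 0.0456 against 0.244 ± 0.0576 (SD, n = 3 each; limma adjusted p = 0.0594).

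SPAG9 (JIP4), a scaffold that binds JNK and also links cargo to microtubule motors, fell. It lies at chr17:50962174-51120865 on the minus strand (ENSG00000008294). Its signal was 81.7, 69.3 and 71.7 in the libraries labelled SRMS shRNA, against 97.0, 88.9 and 87.7 in the vector libraries. Replicate 1 was the highest library in each group, and the groups did not overlap. The means were 74.2 ± 6.60 and 91.2 ± 5.02 (SD, n = 3 each), 18.6% lower, with a log2 fold change of -0.30 (SE 0.0632, limma adjusted p = 0.00245).

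**Figure D2:**
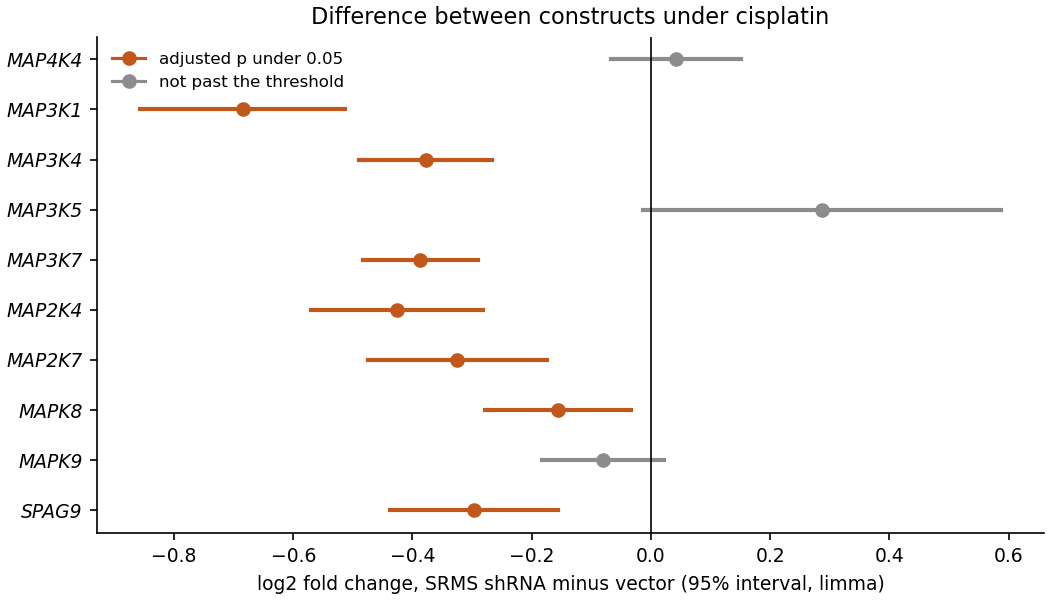
Log2 fold change of each member, libraries labelled SRMS shRNA over vector libraries, with its 95% interval from limma; the line at 0 marks no difference. The intervals of 7 members lie below 0, from -0.16 for MAPK8 to -0.69 for MAP3K1, and those of MAP4K4, MAP3K5 and MAPK9 span it; with median scaling MAPK8 is at 0.0048.

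How low the members stood depended on how libraries were put on a common scale. Aligning the libraries on their median signal moved every log2 fold change up by 0.16. The median log2 fold change over all genes went from 0.0031 on the deposited scale to 0.163, further from no difference. Then 5 members fell and 2 rose, where 17.9% of all genes fell and 44.6% rose. MAP3K1, at -0.53, MAP3K4, MAP3K7, MAP2K4 and MAP2K7 were still lower by limma, and MAP4K4, at 0.20, and MAP3K5, at 0.45, were higher. SPAG9 was at -0.14 (limma adjusted p = 0.0703), MAPK8 at 0.0048 and MAPK9 at 0.080. With quantile scaling 6 members fell, where 26.3% of all genes did. With a replicate block and with the trend on length and GC content of transcripts taken out, 6 members fell and 3 rose, where 29.9% of all genes fell and 30.0% rose. MAP3K5, at 0.46, MAP4K4, at 0.13, and MAPK9, at 0.098, were the members that rose, and MAPK8 was at 0.093. MAP3K1, MAP3K4, MAP3K7, MAP2K4 and MAP2K7 were called lower in all 20 other settings at the same threshold on adjusted p.

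**Figure D3:**
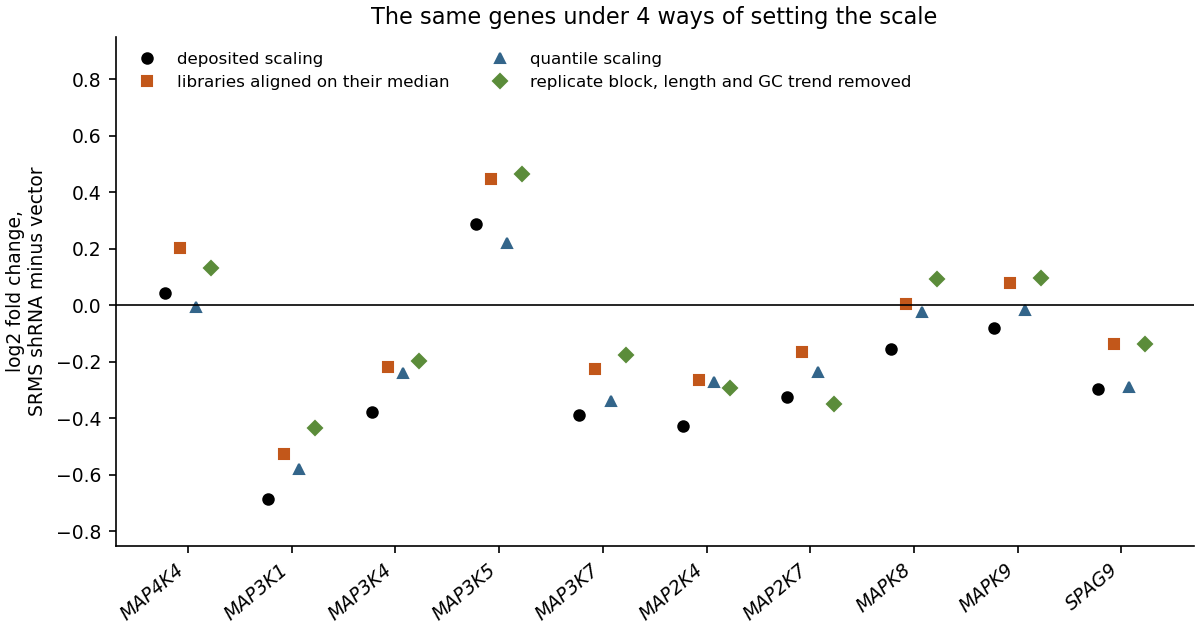
Log2 fold change of each member, libraries labelled SRMS shRNA over vector libraries, under the deposited scale, median scaling, quantile scaling, and the replicate block with the length and GC trend removed. MAP3K1 stays lowest in each, between -0.69 and -0.43, while MAPK8 and MAPK9 lie on either side of 0.

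Levels were also set against each other per kb of transcript. Each length was that of a single annotated transcript per gene. How far the order, and the shares given next, depend on that choice was not tested. In the libraries labelled SRMS shRNA the mean signal per kb was 59.3 for MAP4K4, 15.6 for SPAG9, 11.9 for MAPK9, 11.0 for MAP2K7, 10.6 for MAP3K7, 4.56 for MAPK8, 4.03 for MAP3K4, 2.83 for MAP2K4, 0.822 for MAP3K1 and 0.436 for MAP3K5. In the vector libraries it was 57.5 for MAP4K4, 19.2 for SPAG9, 13.8 for both MAP2K7 and MAP3K7, 12.5 for MAPK9, 5.26 for MAP3K4, 5.09 for MAPK8, 3.84 for MAP2K4, 1.36 for MAP3K1 and 0.344 for MAP3K5. MAP4K4 and SPAG9 had the highest levels per kb in both groups. Among neighbours in the order, MAPK9 overlapped MAP2K7 and MAP2K7 overlapped MAP3K7 in the libraries labelled SRMS shRNA. In the vector libraries MAP2K7 overlapped MAP3K7, and MAP3K4 overlapped MAPK8.

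Shares within a library do not depend on a linear scaling of it. As a share of the signal per kb of the 4 MAP3Ks, MAP3K1 made up 5.19% ± 0.231 in the libraries labelled SRMS shRNA and 6.56% ± 0.180 in the vector libraries (SD, n = 3 each). MAP3K5 made up 2.75% ± 0.127 and 1.65% ± 0.383. These shares did not overlap between groups, and an exact two-sided permutation test gave p = 0.1 for each, the smallest it can give. MAP3K7 held the bulk of the layer, 66.6% ± 1.30 against 66.5% ± 0.665 (exact permutation p = 0.9), and MAP3K4 held 25.4% ± 1.13 against 25.3% ± 0.167 (exact permutation p = 0.8). Among the MAP2Ks, MAP2K7 made up 79.5% ± 1.64 against 78.2% ± 1.40 (exact permutation p = 0.2). Among the JNK genes, MAPK9 made up 72.2% ± 0.378 against 71.0% ± 0.895 (exact permutation p = 0.2). The log2 ratio of MAPK9 to MAPK8 signal, with 0.5 added to each, was 1.14 ± 0.0285 against 1.06 ± 0.0648, and that of MAP2K7 to MAP2K4 was 1.73 ± 0.141 against 1.63 ± 0.118 (SD, n = 3 each). Neither ratio separated the groups, with exact two-sided permutation p of 0.2 and 0.4. The ratio of MAP2K7 to MAP2K4 was higher in 3 of 3 same-numbered pairs, with an exact sign-flip permutation p of 0.25, the smallest that 3 pairs can give.

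**Figure D4:**
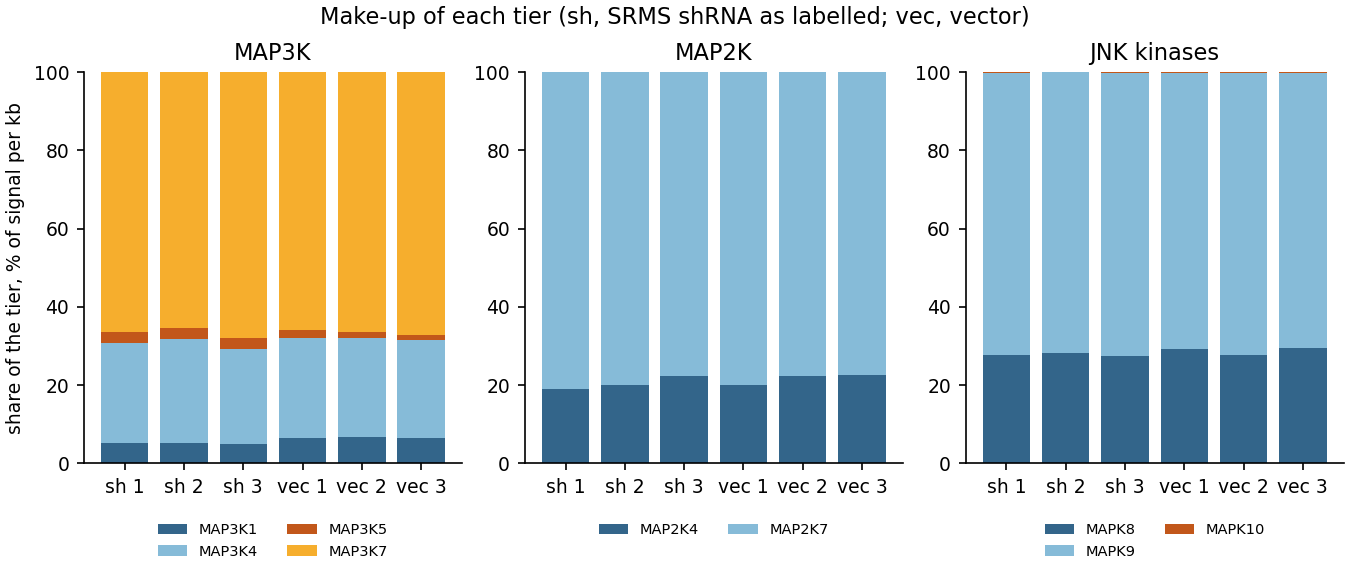
Share (percent) of each kinase in the signal per kb of its own layer (MAP3K, MAP2K, JNK) in each library, libraries labelled SRMS shRNA on the left and vector libraries on the right. MAP3K1 makes up 5.19% against 6.56% of the MAP3K layer on average, and the shares of MAP3K7 and MAP3K4 overlap.

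Other kinases at the same levels of the cascade also fell more often than they rose on the deposited scale. The shares to set beside the counts of this and the next lists are 30.2% lower and 26.6% higher over all genes, and 43.8% and 13.2% within the members' length range. That range is 3361 to 7011 nt, which not all lists share. Median transcript length ran from 1412.5 nt for the regulators of the MAP3Ks and 2303 nt for the p38 genes to 4661.5 nt for the further MAP4Ks. Of 13 further MAP3Ks of the JNK arm, 0 rose and 8 fell by limma, with a median log2 fold change of -0.22. TAOK1, a stress-responsive kinase, had 5.74 ± 0.508 in the libraries labelled SRMS shRNA and 15.0 ± 0.240 in the vector libraries (SD, n = 3 each; log2 fold change -1.31, limma adjusted p = 1.1e-06). Its relative TAOK3 had 11.3 ± 0.405 and 21.0 ± 1.18 (-0.86), and MAP3K3 (MEKK3), better known for the ERK5 route, had 30.1 ± 1.70 and 43.9 ± 3.37 (-0.54). With median scaling 1 of the 13 rose and 6 fell. Of 6 further MAP4Ks, 1 rose and 4 fell, among them MAP4K3 at 7.55 ± 0.496 against 11.4 ± 0.895 (-0.56), MAP4K5 at 49.6 ± 1.31 against 57.8 ± 0.787 (-0.22) and MINK1, the closest relative of MAP4K4 with TNIK, at 119 ± 1.77 against 135 ± 0.496 (-0.18). The calls of MAP4K5 and MINK1 were lost with median scaling, at -0.06 and -0.02, where 1 of the 6 rose and 1 fell.

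Scaffolds and adaptors other than SPAG9 included some of the lowest values of the pathway. Of 11 tested, 1 rose and 7 fell, with a median log2 fold change of -0.30. TAB2, the adaptor that brings polyubiquitin chains to MAP3K7, had 20.4 ± 0.299 in the libraries labelled SRMS shRNA and 44.0 ± 1.22 in the vector libraries (SD, n = 3 each; -1.09, limma adjusted p = 1.68e-07). SH3RF1 (POSH), a scaffold for MAP3Ks and JNK, had 3.96 ± 0.182 and 10.0 ± 0.290 (-1.24), and TRAF2, an adaptor of tumour necrosis factor receptors, had 19.4 ± 1.25 and 28.9 ± 1.41 (-0.56). Median scaling gave 4 higher and 4 lower, with these 3 still lower, and without SRMS shRNA replicate 1 the number that rose was 2.

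Of 6 direct regulators of the MAP3Ks tested (GADD45G is not analysed here), 4 rose and 1 fell, with a median log2 fold change of 0.15, where 26.6% of all genes rose. The number that rose was 2 without SRMS shRNA replicate 3, and also 2 with replicates 2 and 3 averaged. GADD45A, the stress-induced activator of MAP3K4, had 152 ± 6.31 in the libraries labelled SRMS shRNA and 94.0 ± 2.84 in the vector libraries (SD, n = 3 each; 0.69, limma adjusted p = 9.28e-07), and GADD45B had 86.6 ± 5.99 and 68.9 ± 3.73 (0.33). XIAP, a caspase inhibitor that also binds the MAP3K7 partner TAB1, fell, with 8.56 ± 0.854 and 12.1 ± 1.24 (-0.48). With the block and the length and GC trend removed, 2 of the 6 rose and 3 fell, with a median of -0.05. Of 5 phosphatases listed for the JNK pathway, 1 rose and 1 fell, and with median scaling 3 rose and 1 fell. DUSP8 had 0.964 ± 0.142 and 0.528 ± 0.072 (0.51, on 161 reads in all), DUSP16 had 4.45 ± 0.712 and 6.43 ± 0.694 (-0.49), and DUSP22 had 10.1 ± 0.625 and 9.23 ± 0.826 (limma adjusted p = 0.237).

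At the end of the cascade, 2 of 10 JNK substrates rose and 4 fell, where 26.6% of all genes rose and 30.2% fell. With median scaling 4 rose and 3 fell, and with the block and the length and GC trend removed 3 rose and 7 fell. JUN, which encodes the transcription factor c-Jun, had 343 ± 16.4 in the libraries labelled SRMS shRNA and 245 ± 12.6 in the vector libraries (SD, n = 3 each; 0.48, limma adjusted p = 1.64e-05). ITCH, a ubiquitin ligase that JNK phosphorylates, had 23.3 ± 0.432 and 36.0 ± 0.520 (-0.61), and IRS1, the insulin receptor substrate, had 40.9 ± 1.46 and 62.0 ± 0.935 (-0.59). In the neighbouring MAPK arms genes also fell more often than they rose on the deposited scale, but not with median scaling. Of 9 p38 genes, 0 rose and 4 fell, including MAPK14 (p38α) at 15.4 ± 0.337 against 28.6 ± 1.91 (-0.87). Also lower were its activator MAP2K3, at 59.1 ± 0.526 against 69.1 ± 0.999 (-0.22), and its effector MAPKAPK2, at 46.2 ± 3.77 against 56.5 ± 5.23 (-0.29), and both calls were lost with median scaling. Of 10 genes of the ERK arms, 0 rose and 5 fell, including the scaffold KSR1 at 4.70 ± 0.587 against 7.71 ± 0.602 (-0.66) and MAPK7 (ERK5) at 28.2 ± 0.861 against 35.4 ± 0.901 (-0.32). With median scaling 2 p38 genes rose and 1 fell, and 4 genes of the ERK arms rose and 2 fell. With the block and the length and GC trend removed, 1 p38 gene rose and 6 fell. In that setting 1 gene of the ERK arms rose and 5 fell. In the ERK arms 3 rose without SRMS shRNA replicate 1, and 3 fell without vector replicate 2 or without vector replicate 3.

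**Figure D5:**
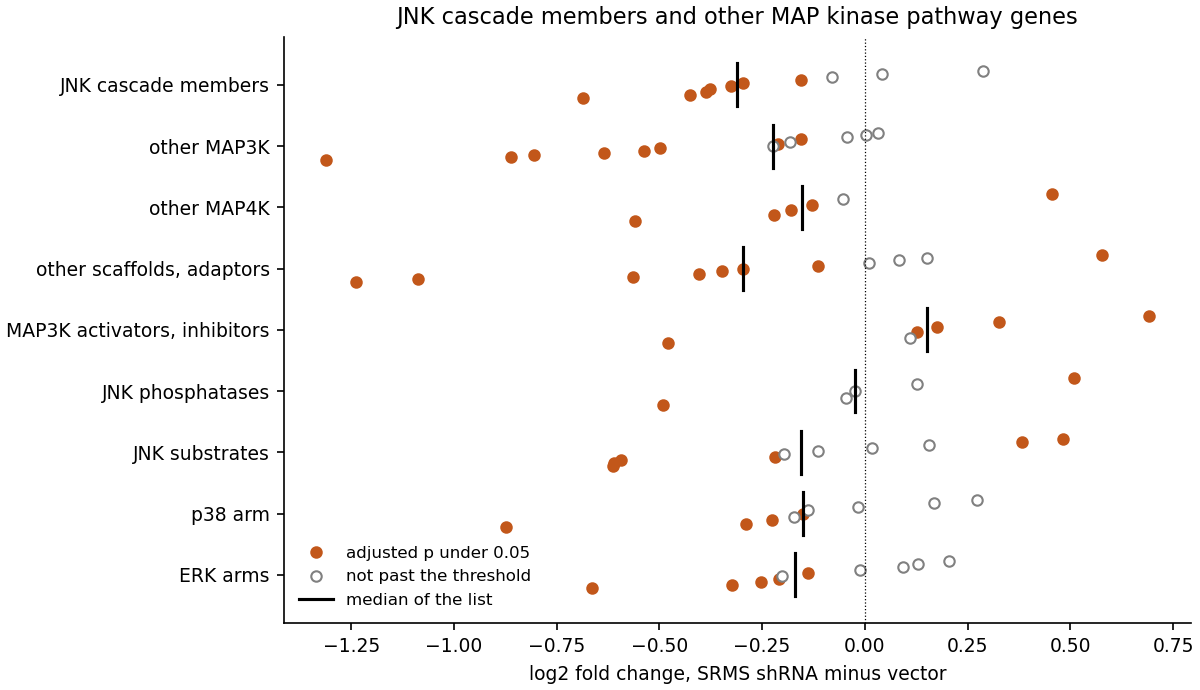
Log2 fold change of every tested gene in the members and the other pathway lists, libraries labelled SRMS shRNA over vector libraries, with the median of each list as a bar. The median is -0.31 for the members and 0.15 for the regulators of the MAP3Ks.

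Both MAP2K genes fell, so their promoters are shown, as 250 bases before to 50 after the RefSeq start on GRCh38.p14, plus strand. Capitals mark the GC box letters CCGCCC or their complement GGGCGG.
MAP2K4: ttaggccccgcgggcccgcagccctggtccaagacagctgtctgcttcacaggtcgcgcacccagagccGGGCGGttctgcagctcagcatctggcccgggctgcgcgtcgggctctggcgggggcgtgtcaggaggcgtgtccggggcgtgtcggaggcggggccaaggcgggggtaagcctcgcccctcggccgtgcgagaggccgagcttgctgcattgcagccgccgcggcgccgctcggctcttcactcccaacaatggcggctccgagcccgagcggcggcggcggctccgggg
MAP2K7: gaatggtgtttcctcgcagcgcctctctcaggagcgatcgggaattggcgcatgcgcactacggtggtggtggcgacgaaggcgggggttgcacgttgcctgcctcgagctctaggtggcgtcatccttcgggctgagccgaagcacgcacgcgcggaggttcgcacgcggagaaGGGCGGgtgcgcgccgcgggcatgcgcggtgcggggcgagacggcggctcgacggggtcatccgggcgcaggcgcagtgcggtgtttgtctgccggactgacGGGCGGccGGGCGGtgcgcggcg
The windows are chr17:12020627-12020926 for MAP2K4 and chr19:7903627-7903926 for MAP2K7, with 38 and 47 CpG pairs, against a median of 24 over all windows. RefSeq windows matched 9 of the 10 members (MAP3K1 was not matched), 13 windows in all. On both strands, CCGCCC was found in 12 of the 13 and in 63.4% of all 16462 windows. These 12 came from all 9 matched members, among them MAP4K4, MAP3K5 and MAPK9, which did not pass the test. The AP-1 letters TGANTCA were found in 0 of the 13 and 5.49% of all windows, TGACGTCA in 0 and 2.68%, and TATAAA in 0 and 7.03%. No match says only that these letters are not in these windows.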

How the data were processed

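Stranded TruSeq libraries of poly(A) RNA were read as paired ends on a NovaSeq instrument, per the labels' protocols. The submitters' processing notes list FastQC, cutadapt, HISAT2, StringTie, edgeR and build GRCh38. Their versions and settings, and the rule by which low genes were dropped, are not stated. Although the table is called log CPM, the authors' deposited values are a linear signal, reads divided by an effective library size. Whole reads were recovered, within 0.1, for at least 99.99% of values in each library. The plan had assumed log2 CPM.

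Of 14042 rows, 13 for Y copies of pseudoautosomal genes were left out. The other 14029 matched identifiers of GENCODE release 29, which is on GRCh38, and 14007 of these had symbols. Tests used limma 3.58.1 (trend) in R 4.3.3 on log2(signal + 0.5), which understates changes of low genes, on the 6 libraries without a block. P-values were adjusted over all 14029 genes by Benjamini-Hochberg, with a threshold of 0.05. Single ratios and shares used exact two-sided permutation tests. The fit was tested on simulated data in which all replicates were drawn alike. That test therefore does not cover differences between replicates such as those described below. Alternatives were edgeR 4.0.16 and DESeq2 1.42.0 on recovered reads, scalings, filters, pseudocounts, array weights, a replicate block, averaged replicates and leaving out libraries. Named were all members, SRMS and up to 3 genes per other list with the smallest adjusted p, of which 1 is not reported here. Members and lists were chosen with earlier results of these data known.

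The labels number replicates without saying what a number shares. Across genes, deviations from the group mean had correlations of 0.309, 0.106 and 0.120 for the same-numbered pairs, and same-numbered libraries were treated as pairs in the block, though replicates 2 and 3 also correlated across numbers (0.114 and 0.113). In genes with 200 to 5000 reads, chi-square per gene for replicates 2 and 3 was 1.63 in the libraries labelled SRMS shRNA and 1.78 in the vector libraries, against 3.37 to 4.63 for pairs that held replicate 1. In genes of 5000 reads or more these were 2.62 and 2.47, against 25.3 to 44.4. Replicates 2 and 3 still differed, so all were kept.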

Additional observations from a re-analysis of the deposited data

How the results depend on the processing

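Over all genes, 3736 rose and 4233 fell. With median scaling they were 6254 and 2510, and with the block and median scaling together, a setting chosen after seeing the data, 6885 were higher. On recovered reads edgeR called 3893 higher and 4165 lower, and DESeq2 3585 and 3790. Among the members, edgeR called 7 lower and DESeq2 6. The replicate block called 7 lower and 0 higher, and the adjusted p of SRMS was the only call among the members and SRMS that it changed. Members called higher numbered 0, but 2 with median scaling, 1 with array weights, 3 with the block and the length and GC trend removed, 1 without replicate 1 of both groups and 3 with the block and median scaling. Leaving out single libraries gave 0 to 1 higher and 6 to 7 lower. With a minimum of 0.5 on the absolute log2 fold change, 1 member, MAP3K1, was lower. SRMS had a log2 fold change of 0.52 with the block (limma adjusted p = 0.00782) and 0.51 without replicate 1 of both groups. It was 0.68 with the block and median scaling, and 0.23 to 0.84 with single libraries left out. On recovered reads the adjusted p of SRMS was 0.259 by edgeR and 0.437 by DESeq2. MAP4K4 turned to -0.0065 with quantile scaling and ranged from -0.0097 to 0.077 with single libraries left out. MAPK8 turned to 0.0048 with median scaling, with or without the block, and to 0.093 with the block and the length and GC trend removed. MAPK9 turned to 0.080 and 0.098 in the same settings. The cause of these changes was not tested. Of the counts of genes called in the other lists, 301 were equal to the main count or within 1.5 times of it, and 59 moved. MAP3K5, SRMS, MAPK10 and DUSP8 rest on few reads, which limits their precision. So do some unnamed genes in the counts, among them the further MAP4K that rose, with 143 reads in all. Its call was lost with quantile scaling and with DESeq2.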

Other observations

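Replicate 1 was the highest library in both groups for 6 of the 10 members, MAP4K4, MAP3K5, MAP2K7, MAPK8, MAPK9 and SPAG9, and the lowest in both for 0. Over all genes tested it was the highest in both groups for 24.4% and the lowest in both for 22.2%.

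The hexamer CGTGTC, which an earlier scan of these same fold changes had picked out, lies in the coding sequence or 3′ UTR of 4 of the 10 members, once each in MAP4K4, MAP3K4 and MAPK8 and at 2 places in MAPK9. It lies in 25.5% of all genes and in 31.5% of those within the members' length range. The median log2 fold change was -0.12 for the 4 members with it and -0.36 for the 6 without it. Over all genes the order was the opposite, with a median of -0.08 for genes with it and 0.03 for genes without it. The scan that picked the hexamer used these same fold changes, so this order over all genes is not independent of that choice. The part of transcript length in either order was not tested.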
